A study of Arabidopsis thaliana with 18 samples.

Results

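TRIPTYCHON (TRY, locus AT5G53200) and GLABROUS INFLORESCENCE STEMS (GIS, locus AT3G58070) are regulators of trichomes, the hair cells of the Arabidopsis thaliana leaf and stem epidermis. They were chosen by name from leaf array data because both stood higher on day 5 than on day 1. That choice used the array signals themselves, so their differences between the days are described here without a test. Each gene had 1 probe set, 248246_at for TRY and 251586_at for GIS. The annotation names 13286 genes by a probe set of their own, and the deposited table holds 22810 probe sets in all. Both members passed the filter on low signal that left 13648 probe sets for testing.

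Per the labels' protocol, plants 2 weeks old were all first held in 150 mM NaCl for 24 hours, the control plants too. MEA is a methanol extract of the brown seaweed Ascophyllum nodosum, and EAA is the ethyl acetate sub-fraction. After the salt, EAA plants received the sub-fraction, MEA plants the methanol extract, and NaCl plants 0.1% aqueous methanol, the vehicle. Leaves were taken on day 5 or day 1, which gives 6 groups of 3 arrays: EAA, MEA and NaCl on each day. No genotype or accession of the plants is named in the labels. The labels of the 6 NaCl arrays conflict: their source names give NaCl alone, while their titles and descriptions give EAA without NaCl, where those of the other arrays name both an extract and NaCl. By the titles these 6 arrays would be an extract group with no salt. The grouping follows the source names, and every comparison with NaCl rests on them. Replicates are named as biological in the titles, with no word on separate cultures, so p-values measure the spread between these samples, which may be partly technical.

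Trichomes on a young leaf are spaced by an activator complex and by small mobile inhibitors that it switches on. The activator joins the R2R3 MYB protein GL1, a bHLH protein such as GL3 or EGL3, and the WD40 protein TTG1. TRY is a single-repeat R3 MYB protein that competes with GL1 for the bHLH partner, moves to neighbouring cells and keeps them from becoming trichomes. GIS is a C2H2 zinc finger protein that acts in the gibberellin pathway upstream of GL1 and promotes trichomes, best known on stems and other inflorescence organs. The pair thus holds 1 inhibitor and 1 promoter of the same cell fate.

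The arrays were made from whole leaves. Fewer cells that express a gene and less RNA per cell therefore cannot be told apart. The leaf markers RCA, the activase of Rubisco, and PRK, an enzyme of the Calvin cycle, had log2 signals of 13.32 to 14.02 and 11.11 to 12.41. The root markers PYK10 and EXPA7, the 2 of 8 listed with a named probe set, lay at 2.95 to 3.97 and 2.92 to 3.53. Neither passed the filter on low signal. PYK10 was not level across the groups. Its NaCl arrays of day 1 held 3.41 to 3.97, above all other arrays (3.38 at most). In NaCl its mean was 3.03 on day 5 and 3.74 on day 1, which was not tested. RCA rose by 0.55 between the days in NaCl (limma adjusted p = 0.0018), beside the higher TRY and GIS there. PRK did not pass in NaCl (mean 12.16 on day 5, 11.95 on day 1). Neither marker passed with EAA, where PRK was the lower on day 5 (11.81, against 12.03 on day 1), or with MEA. Only these 2 of the 8 listed leaf markers had a named probe set. The part of RCA in the TRY and GIS values was not tested. None of 7 genes listed as rich in trichomes had a named probe set in the annotation used here. A share of trichome cells in the samples could therefore not be read from markers.

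TRY, the inhibitor, had log2 signals of 4.13, 5.16 and 5.60 with EAA on day 5 (replicates 1 to 3). MEA arrays of day 5 gave TRY signals of 5.34, 4.02 and 5.20. NaCl arrays of that day gave 5.86, 6.79 and 6.02. All 3 NaCl arrays were thus above all 6 extract arrays on day 5, and the extract groups overlapped each other. Over all probe sets tested, arrays did not overlap in either direction in 13.9% for EAA against NaCl and in 16.6% for MEA against NaCl. The share for NaCl apart from both extracts was not counted.

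On day 1 the TRY signals were 4.41, 4.39 and 4.66 with EAA. The MEA arrays of day 1 held 3.69, 4.30 and 3.71, and the NaCl arrays 3.86, 3.90 and 3.73. The 3 EAA arrays lay above the other 6 arrays of that day. Arrays did not overlap in 18.6% of all probe sets tested for EAA against NaCl and in 16.2% for EAA against MEA. The share for EAA apart from both was not counted. MEA and NaCl overlapped, and their means of 3.90 ± 0.34 and 3.83 ± 0.09 (SD, n = 3 each) fell below the filter value of 4.01, so TRY was near the low end of the measured range there. Across the 18 arrays, TRY stood between the 36.1 and the 72.7 percentile of the probe sets on its array.

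GIS, the promoter of trichomes, had log2 signals of 7.51, 7.62 and 8.09 with EAA on day 5. Those of MEA on day 5 were 5.78, 7.84 and 6.33. Those of NaCl on day 5 were 8.05, 8.45 and 8.13. EAA and NaCl overlapped slightly, while MEA held 2 arrays far below them and 1 array among the EAA values.

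On day 1 the GIS signals were 6.27, 6.44 and 5.89 with EAA. They were 6.32, 6.55 and 6.22 with MEA, and 5.92, 5.68 and 6.08 with NaCl. All 3 MEA arrays were above all 3 NaCl arrays, where 11.7% of all probe sets tested did not overlap in either direction, and EAA overlapped both. GIS was the brighter probe set, between the 58.1 and the 89.8 percentile of each array, but signals of different probe sets are not set against each other as levels.

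**Figure D1:**
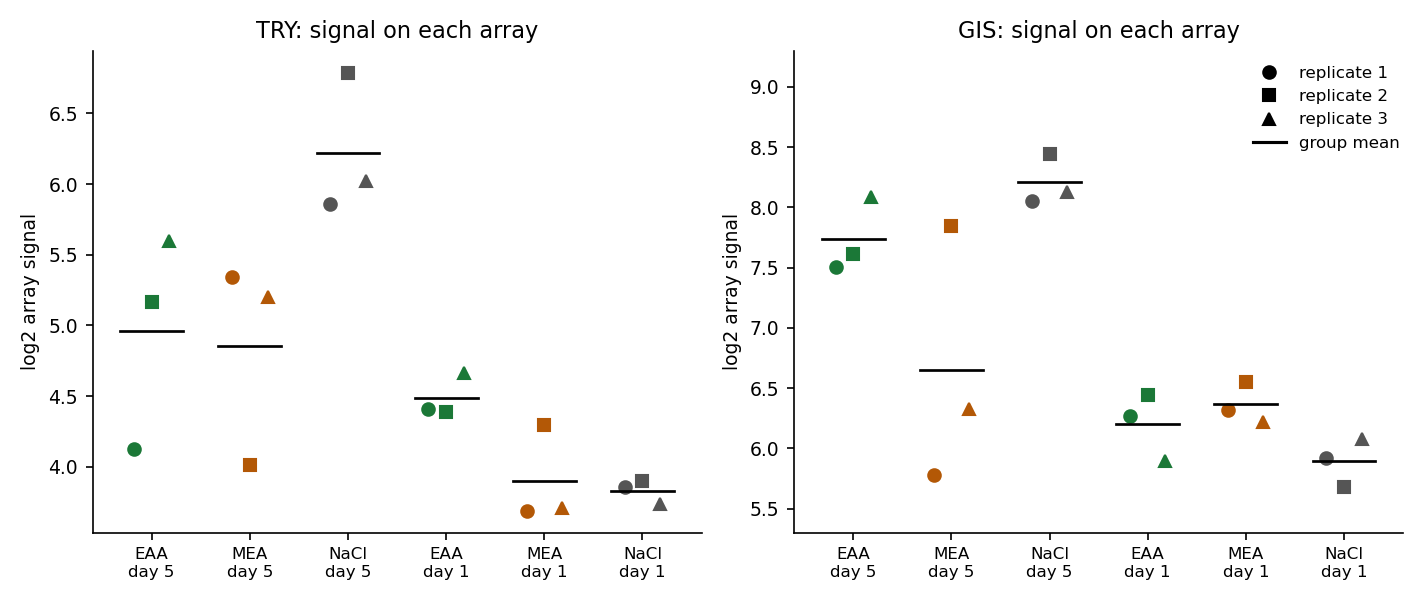
Log2 array signal of TRY (left) and GIS (right) on each of the 18 arrays, by group, with points for arrays and a flat line for the mean of 3 arrays. Day 5 NaCl arrays reach 6.79 for TRY and 8.45 for GIS, and the MEA day 5 arrays spread from 4.02 to 5.34 for TRY and from 5.78 to 7.84 for GIS.

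Ordered by group mean, TRY was highest with NaCl on day 5 (6.22 ± 0.50), then with EAA on day 5 (4.96 ± 0.76), MEA on day 5 (4.85 ± 0.73), EAA on day 1 (4.49 ± 0.15), and last with MEA and NaCl on day 1 (SD, n = 3 each). Among neighbours in that order, arrays failed to overlap at 2 steps. These were between NaCl and EAA on day 5 (as in 13.9% of all probe sets tested), and between EAA and MEA on day 1 (16.2%). The GIS order was NaCl on day 5 (8.21 ± 0.21), EAA on day 5 (7.74 ± 0.31), MEA on day 5 (6.65 ± 1.07), MEA on day 1 (6.36 ± 0.17), EAA on day 1 (6.20 ± 0.28) and NaCl on day 1 (5.89 ± 0.20). For GIS every neighbouring pair of groups overlapped. NaCl held both ends of the GIS order, and for TRY it held the top and the lowest mean.

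The difference between the days was largest in NaCl for both genes, and the order of the extracts rested on the MEA arrays of day 5. Day 5 minus day 1, TRY differed by 0.48 with EAA, 0.95 with MEA and 2.39 with NaCl on the log2 scale (SE 0.37 each). For GIS the differences were 1.54 with EAA, 0.29 with MEA and 2.31 with NaCl (SE 0.36 each). In NaCl the 2 genes thus stood side by side, and with EAA the larger difference was that of GIS. With MEA it was that of TRY over all 3 arrays of day 5, but this turns with replicate 2 as the one MEA array of day 5. TRY then differed by 0.12 and GIS by 1.48. Beside 0.48 and 1.54 with EAA, a lone array cannot set the order of the extracts. The EAA value of TRY also moved with single arrays, to 0.90 without EAA replicate 1 and 0.16 without EAA replicate 3 of day 5.

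Ranked by the size of the signed difference among the 13648 probe sets tested, TRY and GIS were 114th and 135th in NaCl. With EAA they were 2354th and 429th, and with MEA 226th and 2156th, ranks that rest on the same movable values. Among genes with a symbol of their own they were 5th and 8th in NaCl. Just above and below them there were ASPGB1 (2.76), SIS (2.36), MGL (2.35), HYH (2.29) and CCR2 (2.22), as log2 differences. Higher signals on day 5 were common: 14.1% of the probe sets tested were higher in NaCl at an adjusted p under 0.05, 15.7% with EAA and 1.59% with MEA.

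Subtracting the NaCl difference from that with each extract gives -1.91 for TRY with EAA (SE 0.52) and -1.43 with MEA (SE 0.52). The same quantity for GIS was -0.78 with EAA (SE 0.51) and -2.03 with MEA (SE 0.51). These values use the NaCl arrays by which the genes were chosen, share them between the extracts, and carry no test.

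The comparisons of treatments on one day ask what the extracts did to salt-exposed plants. Those with NaCl are not independent of the choice of the genes, since a gene picked for a high day 5 signal in NaCl tends to a negative difference there. The EAA and MEA comparisons also share the NaCl arrays. Only EAA against MEA uses no NaCl array in its difference, although these arrays too were among the 18 from which the genes were picked. All p-values below are from limma, adjusted by the Benjamini-Hochberg method over the 13648 probe sets.

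With MEA on day 5, TRY was 1.37 below NaCl on the log2 scale (difference -1.37, 95% interval -2.16 to -0.58, limma adjusted p = 0.0307). GIS was 1.56 below it (difference -1.56, interval -2.33 to -0.78, limma adjusted p = 0.0163). In this comparison 10.7% of all probe sets tested passed, 6.65% as lower with MEA. No MEA array overlapped a NaCl array for either gene, as held for 16.6% of all probe sets. The comparison uses the NaCl arrays by which the genes were chosen, so the 2 calls are given as a description and support nothing further. Both calls depended on single arrays. For TRY the limma adjusted p was 0.0998 without NaCl replicate 2, 0.0768 without NaCl replicate 3 and 0.0503 without MEA replicate 3 of day 5. For GIS it was 0.058 without NaCl replicate 3, 0.0807 without MEA replicate 1 and 0.0666 without MEA replicate 3 of day 5. With a spread estimated from the 9 arrays of day 5 alone, which vary more than those of day 1, neither passed (limma adjusted p = 0.229 for TRY and 0.187 for GIS).

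With EAA on day 5, the TRY difference from NaCl was -1.26 (95% interval -2.05 to -0.47), and it did not pass (limma adjusted p = 0.507). The arrays of the 2 groups did not overlap, as held for 13.9% of all probe sets. The limma test made 0 calls in this comparison, while 1017 probe sets, TRY among them, had an unadjusted p under 0.05. Without EAA replicate 1, the lowest TRY value of that group, the difference was -0.84. GIS differed by -0.47 (interval -1.25 to 0.30, limma adjusted p = 0.792). In the main fit this interval takes in both no difference and a halving or more. The pooled spread behind it includes the MEA arrays of day 5. Without that group the SE of GIS was 0.182, against 0.364 in the main fit. Neither gene passed there (limma adjusted p = 0.0607 for TRY and 0.219 for GIS). With only the arrays compared, the SE of GIS was 0.194, and again neither passed (limma adjusted p = 0.544 for TRY and 0.611 for GIS).

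EAA against MEA on day 5 gave a TRY difference of 0.11 (95% interval -0.68 to 0.90, limma adjusted p = 0.864). Its direction turned without MEA replicate 2 (-0.31) or EAA replicate 3 (-0.21) of day 5, and it was 0.95 with replicate 2 as the one MEA array. GIS was 1.09 higher with EAA in the mean (interval 0.31 to 1.86), which did not pass at a limma adjusted p of 0.0816, in a comparison where 3.85% of the probe sets passed. The MEA arrays decided the GIS value. Without MEA replicate 2 the GIS difference was 1.68 (limma adjusted p = 2.27e-05), and with replicate 2 as the one MEA array of day 5 it was -0.11.

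On day 1 no difference of TRY or GIS between treatments passed; each of the 6 had a limma adjusted p of 1. TRY was 0.65 higher with EAA than with NaCl (95% interval -0.13 to 1.44) and 0.59 higher with EAA than with MEA (interval -0.20 to 1.38). The EAA arrays did not overlap the other group in either, as held for 18.6% and 16.2% of all probe sets. TRY with MEA differed from NaCl by 0.07 (interval -0.72 to 0.85). For GIS the differences were 0.31 for EAA against NaCl (interval -0.47 to 1.08), 0.47 for MEA against NaCl (interval -0.30 to 1.24) and -0.16 for EAA against MEA (interval -0.94 to 0.61). The MEA and NaCl arrays of GIS did not overlap, as held for 11.7% of all probe sets. Limma called 0.022% of the probe sets for EAA against each other group, and none for MEA against NaCl, where 169 had an unadjusted p under 0.05. With the 9 arrays of day 1 alone the SE was 0.16 for each gene, against 0.37 for TRY and 0.36 for GIS in the main fit. None of the 6 passed there, with limma adjusted p = 0.0658 for TRY with EAA against NaCl and 0.518 for GIS with MEA against NaCl. With only the arrays compared, TRY for EAA against NaCl passed (limma adjusted p = 0.0327).

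**Figure D2:**
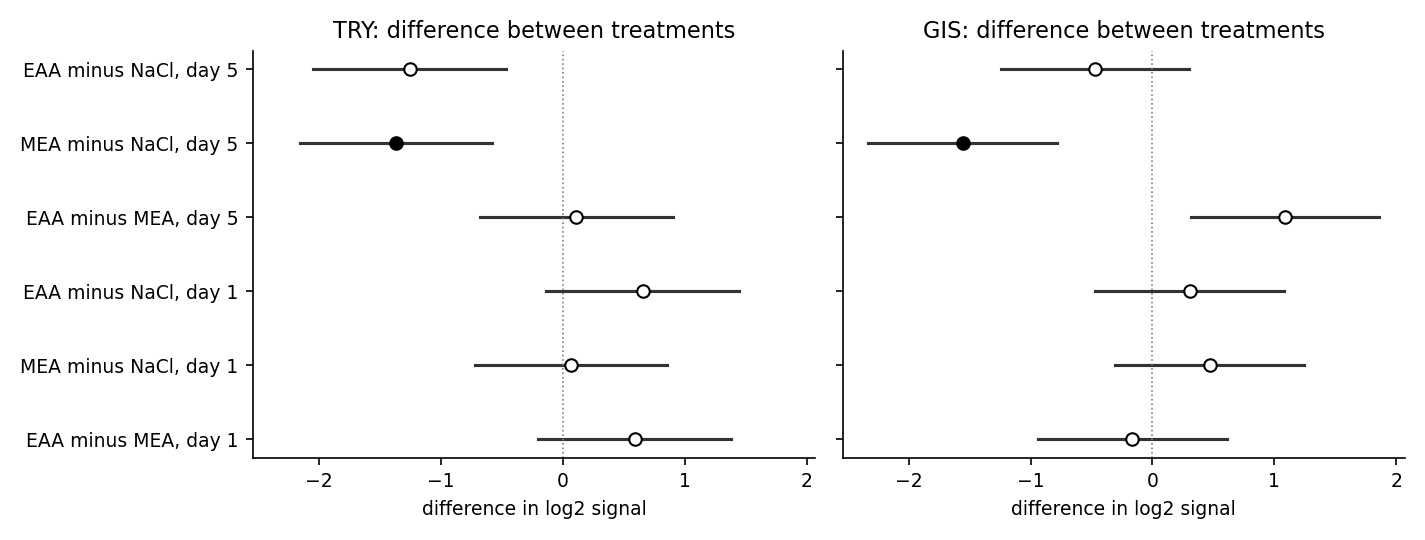
Differences in log2 signal between treatments on day 5 and day 1 for TRY (left) and GIS (right), with points for the limma estimate and lines for its 95% interval. Of the 12 intervals, those of MEA against NaCl on day 5 lie below 0 for both genes (-2.16 to -0.58 for TRY, -2.33 to -0.78 for GIS), and the interval of TRY for EAA against NaCl on day 5 also does. That of GIS for EAA against MEA on day 5 lies above 0, and all the others include 0.

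The 3 MEA arrays of day 5 did not stand together, and TRY and GIS split them in opposite ways. A position between the days was computed for each array from all other tested probe sets, with 0 at the mean of the EAA and NaCl arrays of day 1 and 1 at the mean of those of day 5. MEA replicates 1 to 3 of day 5 lay at 0.15, 1.06 and 0.06. Replicates 1 and 3 were thus near the day 1 arrays, which lay between -0.05 and 0.04, while replicate 2 was among the day 5 arrays of EAA (1.15, 0.96 and 1.03) and NaCl (1.03, 0.84 and 0.99).

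GIS followed this position: replicates 1 and 3 lay within the range of the 9 day 1 arrays (5.68 to 6.55), and replicate 2 at 7.84 was with the other day 5 arrays. TRY did the reverse. Replicates 1 and 3, at 5.34 and 5.20, were above all 9 day 1 arrays (3.69 to 4.66), and replicate 2, at 4.02, was inside that range. The arrays that carried the MEA signal of one gene were therefore those that lacked it for the other.

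How common each pattern was can be counted over the 1919 probe sets that passed as higher on day 5 in NaCl. Replicate 2 was the highest of the 3 MEA arrays of day 5 in 1519 of them (79.2%), as for GIS. It was the lowest in 189 (9.85%), as for TRY. In 53 (2.76%) replicates 1 and 3 were above all day 1 arrays while replicate 2 was inside their range, which is the TRY pattern in full. With EAA, 32.2% of these probe sets differed between the days by no more than TRY, and 84.6% by no more than GIS; with MEA the shares were 90.1% and 42.1%. These counts were chosen after the values had been seen and carry no test.

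Signs of RNA quality moved with part of this. The actin 3' minus 5' control difference was 2.88, 1.56 and 2.30 in MEA replicates 1 to 3 of day 5. It was 2.78, 1.84 and 1.84 in the EAA arrays of day 5, and 1.67 to 2.03 in the NaCl arrays of both days. The same difference for the GAPDH control was 1.06, 0.11 and 0.30 in the MEA arrays and 0.79, 0.39 and 0.30 in the EAA arrays of day 5. NaCl arrays of both days had 0.002 to 0.50, a range that took in MEA replicate 3. EAA replicate 1, with high values of both controls, also held the lowest TRY and GIS of its group. In MEA the array with the lowest difference in both controls held the lowest TRY and the highest GIS. The median SD between replicates was 0.337 in the MEA group of day 5, and elsewhere 0.126 to 0.201. The part of these measures in the TRY and GIS values was not tested.

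Both readings of the MEA group on day 5 are therefore given. With replicate 2 as its one array, MEA against NaCl on day 5 was -2.21 for TRY and -0.36 for GIS. A lone array shows no spread of its own, so no p is given for it. Without replicate 2, TRY was -0.95 (limma adjusted p = 0.0351) and GIS -2.15 (limma adjusted p = 2.53e-06). Both readings use the NaCl arrays by which the genes were chosen, so these p-values support nothing further. The difference between the days with MEA was 0.12 for TRY and 1.48 for GIS with replicate 2 alone, against 1.37 and -0.31 without it.

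**Figure D3:**
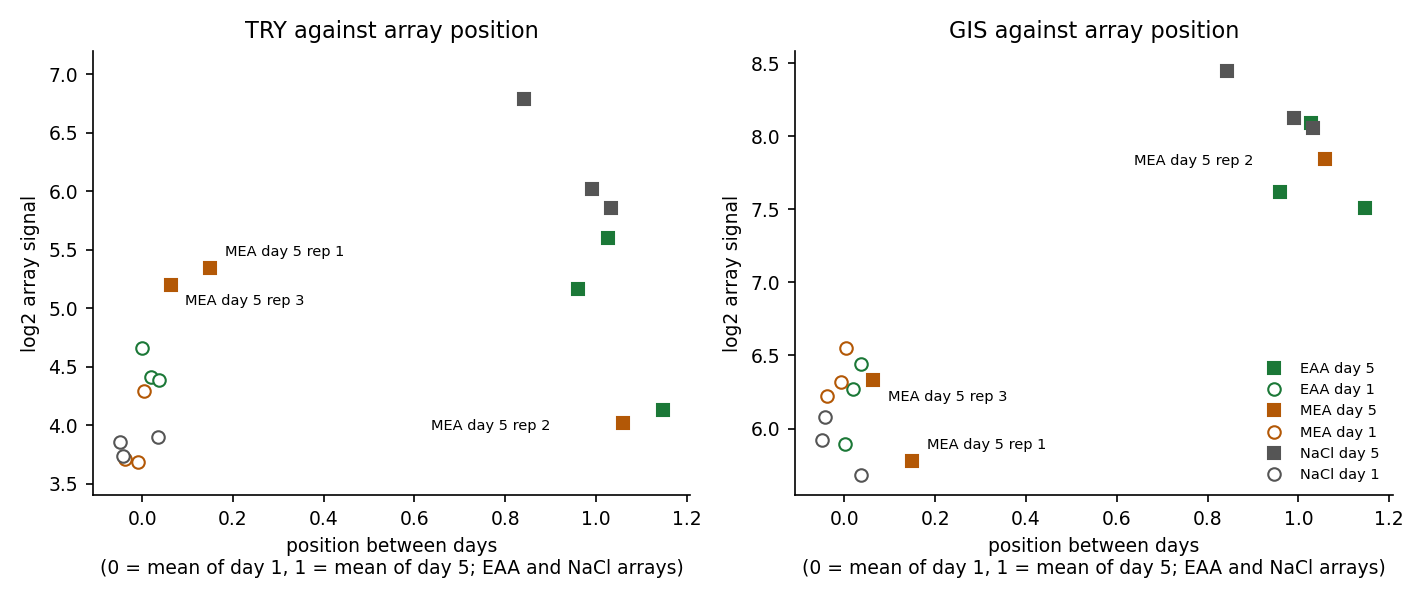
Log2 signal of TRY (left) and GIS (right) on each array against the position of the array between the days, from all other tested probe sets (0 is the mean of day 1 and 1 that of day 5 over EAA and NaCl arrays). MEA replicate 2 of day 5, at position 1.06, has the lowest TRY (4.02) and the highest GIS (7.84) of its group, while replicates 1 and 3 lie at 0.15 and 0.06.

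The other genes of the pathway were described from 7 lists with 91 loci, which were drawn up with earlier results of these data known. The annotation named a probe set for 20 of the 91, and 18 passed the filter, or 16 besides TRY and GIS. Among the 7 R3 MYB inhibitors only TRY had a named probe set, so its relatives such as CPC and ETC1 were not analysed here. Most of the list of the activator complex and its targets was likewise without one. Measured from it were ATMYC1, a bHLH protein related to GL3, and SIM, an inhibitor of cyclin-dependent kinases that acts in endoreduplication of trichomes. ATMYC1 did not pass the filter (3.20 to 3.86 over the 18 arrays).

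Of the 16 other genes, 3 (AT1G68360, described below, among them) were higher and 4 lower on day 5 than on day 1 with EAA, where 15.7% and 20.8% of all probe sets were. In NaCl 3 were higher and 3 lower, against 14.1% and 16.9% of all. With MEA none was higher and 1 was lower, against 1.59% and 2.33% of all. The median difference of the 16 was -0.02 with EAA, -0.16 with MEA and -0.08 with NaCl, beside -0.02, -0.04 and -0.01 over all probe sets tested. The shares were thus near those of all probe sets, and among so few genes each share moves by several percent with a single gene.

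Among cell cycle and cell shape genes, SIM fell with EAA by 0.82 (4.58 ± 0.38 on day 5, 5.40 ± 0.21 on day 1, limma adjusted p = 0.0051). In NaCl it fell by 0.94 (4.86 ± 0.22 on day 5, 5.79 ± 0.10 on day 1, limma adjusted p = 0.0022). SPK1, a DOCK family protein that shapes trichome branches, fell by 0.83 with EAA (limma adjusted p = 0.0092) and by 0.62 in NaCl (limma adjusted p = 0.0428). The NaCl call of SPK1 was lost in 10 of the 18 fits that each left out 1 array, including each array of NaCl on day 5 (limma adjusted p = 0.0674 to 0.13 there), and with the replicate number as a block (0.053). AT5G06700, which RefSeq lists under the synonym TRICHOME BIREFRINGENCE, fell by 1.49 with EAA (limma adjusted p = 0.0038), and differed by -0.78 in NaCl without passing (0.0831). AN, CRK, PIR121 and BRK1, which act in branching and on the actin cytoskeleton of trichomes, passed in no comparison of the days. AT2G46600, also on the branching list, rose by 0.56 in NaCl (limma adjusted p = 0.0453), a call lost in 11 of those 18 fits.

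The second zinc finger gene of the GIS list, AT1G68360, was called higher on day 5 with EAA (4.96 ± 0.31 on day 5, 3.83 ± 0.17 on day 1, limma adjusted p = 0.0051). Its day 1 means of 3.83 with EAA, 3.90 with MEA and 3.91 with NaCl were all below the filter value of 4.01, so it passed the filter through its day 5 signals, and a call in that direction supports nothing further. Its differences of 0.57 with MEA and 0.59 in NaCl did not pass.

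On the gibberellin side, the receptor gene GID1A fell in all 3 treatments. Day 5 and day 1 means were 5.80 ± 0.37 and 7.60 ± 0.22 with EAA, 6.63 ± 0.39 and 7.55 ± 0.17 with MEA, and 5.71 ± 0.36 and 7.73 ± 0.31 in NaCl (SD, n = 3 each). GID1A fell by 1.79 with EAA and fell by 2.02 in NaCl, and both calls held when any 1 array was left out. With MEA it fell by 0.92 (limma adjusted p = 0.0463), a call lost in 13 of the 18 such fits. The other receptor genes GID1B and GID1C, SPY, a repressor of gibberellin signalling, and SLY1, the F-box protein that marks DELLA repressors for degradation, passed in no comparison of the days.

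Of the genes of flowering and phase change, AGL24, a MADS box promoter of flowering, rose by 0.63 with EAA (limma adjusted p = 0.003) and by 1.29 in NaCl. With MEA it differed by 0.39, which did not pass (limma adjusted p = 0.116). SNZ, an AP2-like repressor of flowering, rose by 1.26 with EAA (limma adjusted p = 0.0124) and by 1.01 in NaCl (limma adjusted p = 0.0388). The NaCl call of SNZ was lost without any 1 of the 6 NaCl arrays (limma adjusted p = 0.0574 to 0.134).

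Between treatments on day 5, 1 of the 16 was higher and 1 lower with MEA than with NaCl, where 4.02% and 6.65% of all probe sets were. AGL24 was the lower one, at 4.57 ± 0.16 with MEA and 5.38 ± 0.09 with NaCl (difference -0.81, SE 0.13, limma adjusted p = 0.0033), and leaving out any 1 array did not end the call. GID1A was higher, at 6.63 ± 0.39 with MEA and 5.71 ± 0.36 with NaCl (difference 0.92, SE 0.24, limma adjusted p = 0.0284). Its call was lost without NaCl replicate 1 (0.0651), NaCl replicate 3 (0.134), MEA replicate 1 (0.139) or MEA replicate 3 (0.061) of day 5. None of the 16 passed in the other 5 comparisons of treatments.

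**Figure D4:**
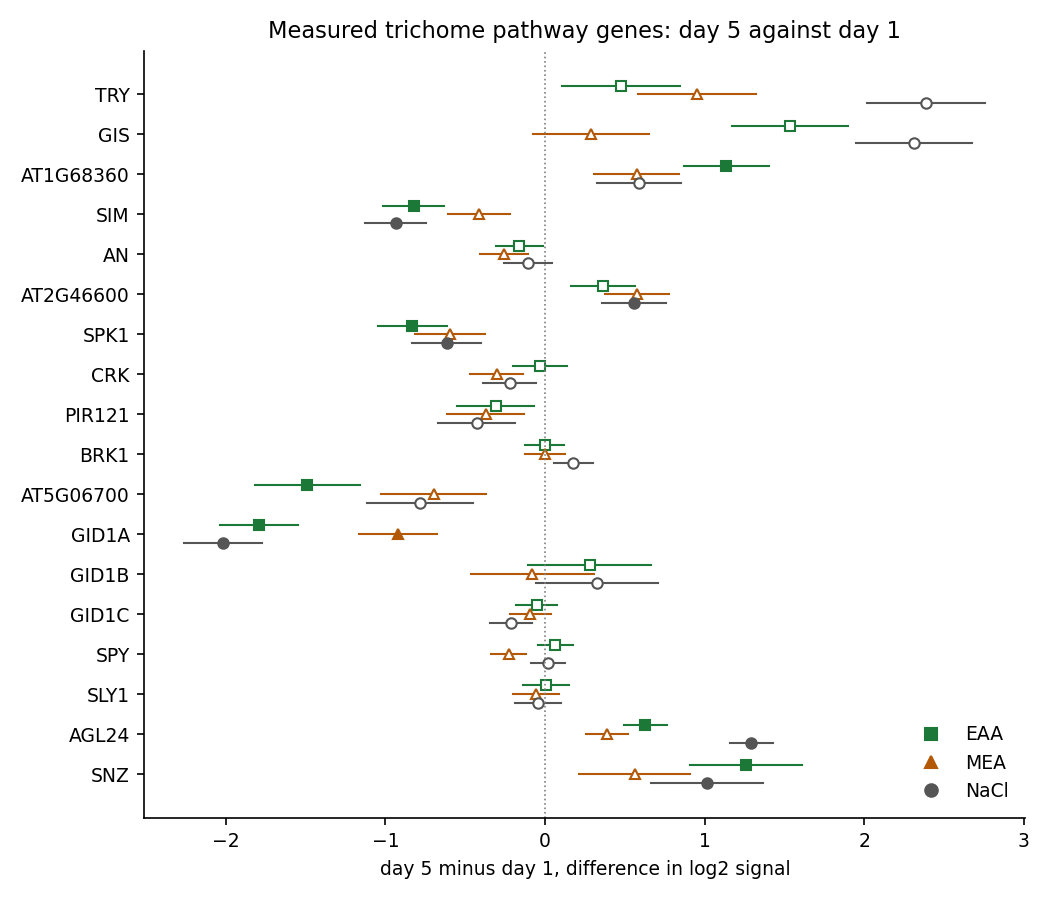
Day 5 minus day 1 difference in log2 signal for TRY, GIS and the 16 other tested genes of the trichome lists, with one marker each for EAA, MEA and NaCl. TRY and GIS lie at 2.39 and 2.31 in NaCl, and GID1A at -1.79 with EAA, -0.92 with MEA and -2.02 in NaCl.

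Likeness to TRY and to GIS was measured as Pearson's r over the 18 arrays among the 1061 tested genes with a symbol of their own. The genes nearest TRY were MTP11 (r = 0.90), ATSPS4F (0.90), LYC (0.89), GSTU18 (0.87), AGL24 (0.87), SWEET2 (0.85), AAH (0.83), PUB26 (0.83), RCA (0.82) and TINY2 (0.82). Of these, ATSPS4F is a sucrose phosphate synthase and LYC the lycopene cyclase of carotenoid synthesis. The day differences of ATSPS4F were 0.24 with EAA, 0.63 with MEA and 1.48 in NaCl on the log2 scale. As for TRY over all arrays, MEA exceeded EAA in 3 of these 10 genes, while EAA exceeded MEA in 7, among them SWEET2 (1.20 with EAA, 0.53 with MEA) and TINY2 (0.62 with EAA, -0.05 with MEA). The genes nearest GIS were PCME (0.93), ARD4 (0.93), WSD1 (0.93), ARLA1A (0.93), AFR (0.93), RCA (0.92), AOR (0.92), BUG22 (0.92), AAPT2 (0.92) and Cpn60beta2 (0.91). EAA exceeded MEA in all 10 of these. WSD1, a wax ester synthase, had log2 day differences of 2.48 with EAA, 0.21 with MEA and 2.84 in NaCl.

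RCA was on both lists and no other gene was. TRY and GIS themselves had an r of 0.66 (Spearman's rank correlation 0.57), which ranked GIS 45th among the neighbours of TRY and TRY 183rd among those of GIS. With MEA replicates 1 and 3 of day 5 left out, their r was 0.79 over 16 arrays. Of the 10 genes nearest TRY, 6 remained by Spearman's rank correlation and 8 over the 16 arrays; for GIS 2 and 6 did. The arrays fall into 2 days, and any gene that differs between the days gains likeness from that alone, so these values describe the arrays and carry no p.

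The protein-coding genes beside TRY and GIS on the chromosome, in RefSeq order, did not pass the filter. TRY lies between SWEET3, a sugar transporter gene, at 3.18 to 3.87 over the 18 arrays, and SPCH, which starts the stomatal lineage, at 2.87 to 3.15. On either side of GIS, AT3G58060 lay at 2.85 to 3.32 and AT3G58090 at 3.48 to 4.03. None of these neighbours differed between the days in NaCl by as much as TRY and GIS did. As none passed the filter, none was tested, and smaller differences cannot be judged. SWEET3 had NaCl means of 3.72 on day 5 and 3.52 on day 1. Of the other stomatal genes, MUTE lay at 2.88 to 3.23 and FMA, which acts late in the guard cell lineage, at 4.38 to 5.28.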

How the data were processed

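Total RNA of leaves was measured on 18 Affymetrix arrays, 6 groups of 3. The deposited values were taken as log2 array signals, judged from their range; MAS5 is named in the submitters' processing notes without a version, and how the values were normalized and logged is not given in the sources used here. Values were used as deposited, with no array rescaled. Genes were named from the platform annotation, updated through RefSeq (TAIR10.1): 13513 probe sets had 1 gene and 13436 of these matched. No coordinates or sequences are given.

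Of 22746 non-control probe sets, 13648 with a mean log2 signal at or above the 40th percentile (4.01) were tested. All 18 arrays entered one limma fit (version 3.58.1, R 4.3.3; lmFit with a mean for each group, eBayes with trend; residual degrees of freedom 12, prior 3.2 in the median), with Benjamini-Hochberg adjustment and a threshold of 0.05. The script was tested on simulated data. The number of arrays limits the precision. The genes, the lists and the comparisons were chosen with earlier results of these data known. Text names TRY and GIS, listed genes that passed or up to 4 per list, and the 10 genes with a symbol most like each by Pearson's r; chromosome neighbours and genes adjacent in rank were named after their values were seen. Alternatives were median centring, quantile normalization, no filter, no trend, array weights, a replicate block, fewer arrays in the fit and leaving out each array. Figures used matplotlib 3.10.9.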

Additional observations from a re-analysis of the deposited data

How the results depend on the processing

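The calls of TRY and GIS rest on 3 arrays a group and on a spread pooled over groups that vary unequally. Median centring, quantile normalization, no filter and no intensity trend changed no call or direction of either gene. Leaving out 1 array at a time, MEA against NaCl on day 5 ranged from -1.61 to -0.95 for TRY and from -2.15 to -1.12 for GIS, EAA against MEA on day 5 from -0.31 to 0.53 and from 0.65 to 1.68, MEA against NaCl on day 1 from -0.13 to 0.17 for TRY, and day 5 against day 1 with MEA from -0.31 to 0.72 for GIS. With only the arrays compared, MEA against NaCl on day 5 stayed at -1.37 for TRY (limma adjusted p = 0.38) and -1.56 for GIS (0.381), as with the 9 arrays of day 5 alone, added after seeing the data (0.229 and 0.187); TRY for EAA against NaCl on day 1, at 0.65, passed with only the arrays compared (0.0327). Array weights gave TRY -0.92 for EAA against NaCl on day 5 (0.0232), -0.11 for EAA against MEA on day 5, -0.041 for MEA against NaCl on day 1 and 1.49 for the days with MEA; GIS was 1.75 for EAA against MEA on day 5, which passed, and -0.36 for the days with MEA. With replicate 2 as the one MEA array of day 5, GIS was -0.36 for MEA against NaCl and -0.11 for EAA against MEA, and 1.48 for the days, with TRY at 0.12. The cause of these changes was not tested.

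The numbers of probe sets called moved with the arrays and the settings used. Leaving out 1 array at a time gave 0 to 5897 calls for EAA against MEA and 374 to 5489 for MEA against NaCl on day 5, 0 to 176 for EAA against NaCl on day 5, 0 to 19 and 0 to 10 for EAA against NaCl and MEA on day 1, and for the days 3281 to 6371 with EAA, 111 to 1756 with MEA and 2892 to 5814 in NaCl. EAA against NaCl on day 1 had 3 calls, against 1 with the replicate block, 25 without the MEA day 5 group or with its replicate 2 alone, 151 with only the arrays compared, 131 with array weights and 193 with the day 1 arrays alone; EAA against MEA on day 1 had 3, against 0, 10, 169, 120 and 107 in that order. MEA against NaCl on day 1 had 0, and 1 with the day 1 arrays alone. EAA against NaCl on day 5 had 0, against 216 without the MEA day 5 group or with its replicate 2 alone, 4 with only the arrays compared and 426 with weights. MEA against NaCl on day 5 had 1456, against 0 with only the arrays compared or the day 5 arrays alone, 913 with replicate 2 alone and 6015 with weights. EAA against MEA on day 5 had 526, against 301 with no filter, 271 with the block, 28 with replicate 2 alone, 6208 with weights, and 0 with only the arrays compared or the day 5 arrays alone. The days gave 4975 with EAA and 7595 with weights, 535 with MEA against 0, 5168 and 3233 with only the arrays compared, replicate 2 alone and weights, and 4220 in NaCl against 7115 with weights.

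The replicate numbers were not used as pairs in the main fit. Correlations between same-numbered arrays of 2 groups were taken on the deviation of each probe set from its group mean. Of 27 such correlations, from -0.44 to 0.43, 7 were over 0.1. Arrays of unlike number were not set beside them, so this count cannot exclude a pairing. With the replicate block, no call of TRY or GIS changed (MEA against NaCl on day 5, limma adjusted p = 0.0394 and 0.0165).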
